A study of Mus musculus with 6 samples.

Results

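Interferon-stimulated genes were followed here: 39 genes, listed by name, out of 14003 genes in the deposited table. The list was drawn up with earlier results of these data known. The cells were MC3T3-E1, a wild-type preosteoblast line derived from mouse calvaria and kept in α-MEM with fetal bovine serum. Total RNA was sequenced from 3 control libraries left untreated and 3 libraries from cells given 200 µM sulfasalazine for 24 h, and the labels name no vehicle and no added TNFα or interferon in either group. Sulfasalazine is an anti-inflammatory drug that also inhibits the cystine transporter containing Slc7a11, and the series concerns TNFα signalling and fracture healing. Whether the 3 replicates came from separate cultures is not in the labels. The p-values therefore reflect only the spread among these 6 libraries, and that spread may be technical.

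Type I interferons bind the receptor made of IFNAR1 and IFNAR2, and the kinases JAK1 and TYK2 then phosphorylate STAT2. STAT2 and IRF9 are parts of a complex called ISGF3, which binds the interferon-stimulated response element (ISRE) in promoters. Interferon-γ acts through another receptor, JAK1 and JAK2, and through promoters that hold the gamma-activated site (GAS). The genes switched on encode antiviral enzymes, sensors of foreign nucleic acid, GTPases, ubiquitin-like modifiers and the factors of the pathway itself. In bone, interferon-β is known for restraining osteoclast formation.

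Promoter windows running from 250 bases before to 50 bases after the start were found in RefSeq (GRCm38.p6) for 32 of the 39 genes. The ISRE core, GAAA and GAAA with any 2 bases between them, was searched on both strands. It stood in a window of 16 of the 32 genes, against 3.99% of 27025 genes and 3.44% of 32851 windows. The GAS core, TTC and GAA with any 3 bases between them, stood in 11 of the 32 (34.4%), against 9.55% of genes and 8.30% of windows. Matches of either motif may overlap each other. The stretches below are shown for the matches of Isg15 and Ifit1, classical members of the family that did not pass with all libraries. The others hold the matches of Stat2 and Ifitm2, which passed as higher, and of Oas1a. Each stretch is written 5′ to 3′ on the strand of its gene, with the bases matching the ISRE core in capitals.
Isg15, chr4:156200855-156200916, minus strand: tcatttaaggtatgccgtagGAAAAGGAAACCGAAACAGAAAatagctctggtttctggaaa
Ifit1, chr19:34640765-34640833, plus strand: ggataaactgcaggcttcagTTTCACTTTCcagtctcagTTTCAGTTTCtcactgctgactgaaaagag
Stat2, chr10:128270256-128270305, plus strand: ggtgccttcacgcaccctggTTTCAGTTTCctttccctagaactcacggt
Ifitm2, chr7:140955978-140956027, minus strand: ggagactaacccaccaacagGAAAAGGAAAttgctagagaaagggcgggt
Oas1a, chr5:120907526-120907565, minus strand: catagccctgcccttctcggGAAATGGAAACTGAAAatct
In Isg15 and Oas1a the matches overlap, 3 in the first and 2 in the second, while Ifit1 has 2 that stand apart. A match describes the letters of the window and is not evidence that a factor was bound there.

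The libraries held 15980935 to 21579133 reads on genes, as recovered from the FPKM values (fragment counts scaled to gene length and depth), and control replicate 3 held the fewest. Of 11 osteoblast markers looked up, 7 had values, and Alpl, Col1a2, Dmp1 and Ibsp had none. Runx2, Spp1 and Sparc stood at a mean of 10 FPKM or more, while Sp7, Col1a1, Bglap and Phex stood below 1 FPKM. The immune markers Csf1r and Lyz2 were at 0.347 FPKM or less in every library and Cd68 and Cd14 were at 13.9 FPKM or more. The latter pair moved in opposite directions with sulfasalazine, Cd68 by -0.91 and Cd14 by 1.64 on the log2(FPKM + 1) scale (limma adjusted p = 0.0111 and 5.9e-05), and the sum of the 4 immune markers with values was 45.7 to 73.8 FPKM in controls and 75.5 to 83.4 FPKM with sulfasalazine. The endothelial markers Pecam1 and Cdh5 summed to 0.139 FPKM or less, and 3 keratin genes stood at 10 FPKM or more, of which Krt8 and Krt18 rose, by 1.65 and 0.37, and Krt19 fell, with a log2 ratio of -1.21. The epithelial marker Cdh1 stood at 5.15 to 9.03 FPKM and did not pass. The immune markers Ptprc, Adgre1 and Itgam, the epithelial Epcam, the fibroblast Lum and Thy1 and the endothelial Kdr and Tek had no values. Of the osteoblast markers, Spp1 and Runx2 fell, with log2 ratios of -0.97 and -0.36, and Sparc did not pass. The part of any other cell type in the results below was not tested. In bulk RNA, fewer cells expressing a gene and less of its RNA per cell cannot be told apart.

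Replicate 3 of each group stood apart in this family of genes. Control replicate 3 was the highest control for 33 of the 39 genes, and sulfasalazine replicate 3 was the highest treated library for 38. Both held for 32 of the 39. Among the 32 genes that passed the filter of at least 1 FPKM in at least 3 libraries, the counts were 28, 31 and 27, while over all 10338 genes that passed it the shares were 45.5%, 55.3% and 20.6%. Control replicate 2 was the lowest control for 30 of the 39 genes, and for 27 of the 32 tested against 31.9% of all tested genes. On the log2(FPKM + 1) scale, the median distance of replicate 3 from the mean of replicates 1 and 2 was 0.75 in controls and 0.82 with sulfasalazine for the 32 genes, and 0.05 and 0.08 for all tested genes. It was above 0 for 31 of the 32 genes in each group. The labels do not link the number 3 in one group to the number 3 in the other. The pattern was noticed after the data were seen, and its cause was not tested. The summed level of the 3 fibroblast markers with values was also highest in replicate 3 of each group. It was 5.36, 4.59 and 11.4 FPKM in control replicates 1, 2 and 3 and 2.65, 2.18 and 6.31 FPKM in the treated libraries. Most of it came from Pdgfrb, while Dcn stayed at 0.136 FPKM or less and Pdgfra at 0.560 FPKM or less, and its part in the pattern was not tested. The summed osteoblast markers behaved alike, at 1549, 2054 and 2142 FPKM in controls and 968, 889 and 1110 FPKM with sulfasalazine, mostly from Spp1. Sparc was also highest in replicate 3 of each group, while Runx2 was highest in control replicate 1. The immune, epithelial and endothelial sums were not highest in replicate 3 of both groups. Their parts were not tested either.

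Reads on the 39 genes made up 0.0894%, 0.0721% and 0.132% of all reads on genes in the controls, replicates 1 to 3, against 0.107%, 0.102% and 0.149% in the treated libraries. The share in control replicate 3 was therefore higher than in sulfasalazine replicates 1 and 2. Among the largest distances were those of Isg15, with distances of 1.14 and 1.94 in control and treated replicate 3, Oasl2 with 1.09 and 2.08, and Ifit1 with 0.65 and 2.15. Others showed it in controls alone, such as Irf1 (1.00 and 0.07) and Ifitm3 (0.93 and 0.08), and Ifitm2 had 0.26 and -0.35. Across the 32 tested genes the distances in the groups had a Pearson correlation of 0.40, against -0.17 over all tested genes. Genes of the same libraries are not independent, so these are descriptions.

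**Figure D1:**
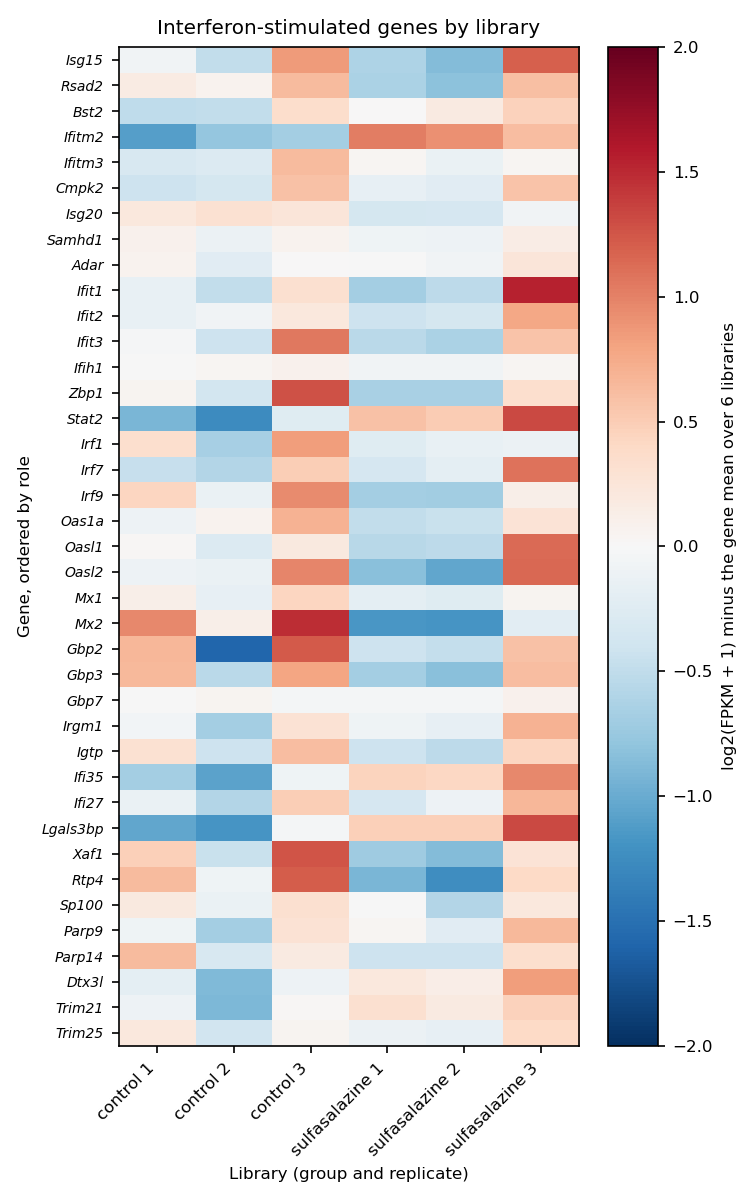
Each row is 1 of the 39 interferon-stimulated genes, ordered by role, and each column a library; colour gives log2(FPKM + 1) minus the mean of the gene over the 6 libraries. The columns of control replicate 3 and sulfasalazine replicate 3 are mostly red, and replicate 3 was the highest library in both groups for 32 of the 39 genes.

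**Figure D2:**
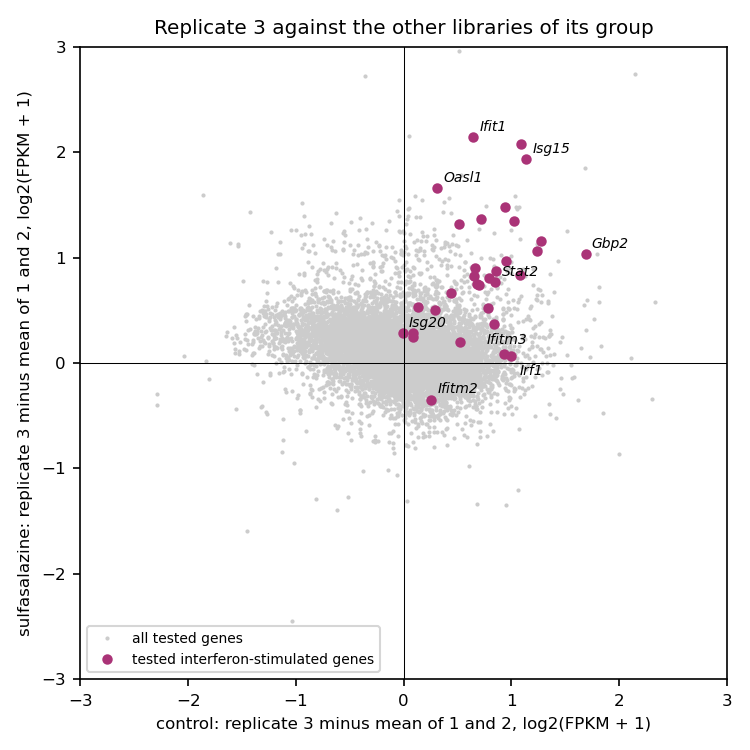
Each point is a gene; the axes give replicate 3 minus the mean of replicates 1 and 2, in log2(FPKM + 1), in controls (horizontal) and with sulfasalazine (vertical). The 32 tested interferon-stimulated genes lie mostly to the upper right of the grey cloud of all 10338 tested genes, of which 1 lies outside the axes.

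Of the 32 tested interferon-stimulated genes, 6 were higher and 3 lower with sulfasalazine at a limma adjusted p under 0.05, and 23 did not pass. Over all 10338 tested genes, 66.5% passed in either direction, 37.2% as higher and 29.3% as lower. The median log2 fold change (log2 ratio), sulfasalazine over control on the FPKM + 1 scale, was -0.03 for the 32 genes and 0.08 for all tested genes. The groups did not overlap for 6 genes in the higher direction and 2 in the lower, against 40.3% and 31.1% of all tested genes, or 71.4% in either direction. The remaining 7 genes (Ifit2, Ifih1, Mx1, Gbp7, Parp14, Zbp1 and Cmpk2) did not reach the filter and have no test. For 5 of the tested genes (Oas1a, Mx2, Rsad2, Rtp4 and Sp100) all 3 controls reached 1 FPKM and fewer treated libraries did, so the controls alone carried them past the filter. Among the other 27, 6 were higher and 2 lower.

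Leaving out replicate 3 of both groups left 26 of the 39 genes to test, of which 7 were higher and 6 lower, while 76.7% of 9712 genes passed, 39.4% as higher and 37.3% as lower. The 6 higher genes remained and Bst2 was added. Irf9 and Isg20 remained lower, Oasl1, Oasl2, Rtp4 and Xaf1 were added as lower, and Mx2 was not tested. Leaving out control replicate 2 alone added Gbp2, Irf1, Rtp4 and Xaf1 as lower, and leaving out sulfasalazine replicate 3 alone added Oas1a, Oasl1, Oasl2, Rsad2 and Rtp4 as lower. In the latter fit the controls alone carried Oas1a, Rsad2 and Rtp4 past the filter. Their calls there are not independent of their control levels. Leaving out control replicate 3 alone added Bst2 and Ifitm3 as higher. Limma voom on the recovered reads called 6 higher and 4 lower, adding Rtp4, with 66.8% of all tested genes called, 37.6% as higher and 29.2% as lower. Scaling by median of ratios shifted the median of all tested genes by -0.12 on the log2 scale and gave 5 higher and 4 lower, against 33.2% and 34.1% of all tested genes. Quantile normalization gave 4 and 9, against 33.9% and 34.3%. In the authors' deposited table, 5 of the 39 genes are higher, 5 lower and 29 not called at an adjusted p under 0.05, where 55.0% of its 14003 genes are called, 28.2% as higher and 26.8% as lower.

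**Figure D3:**
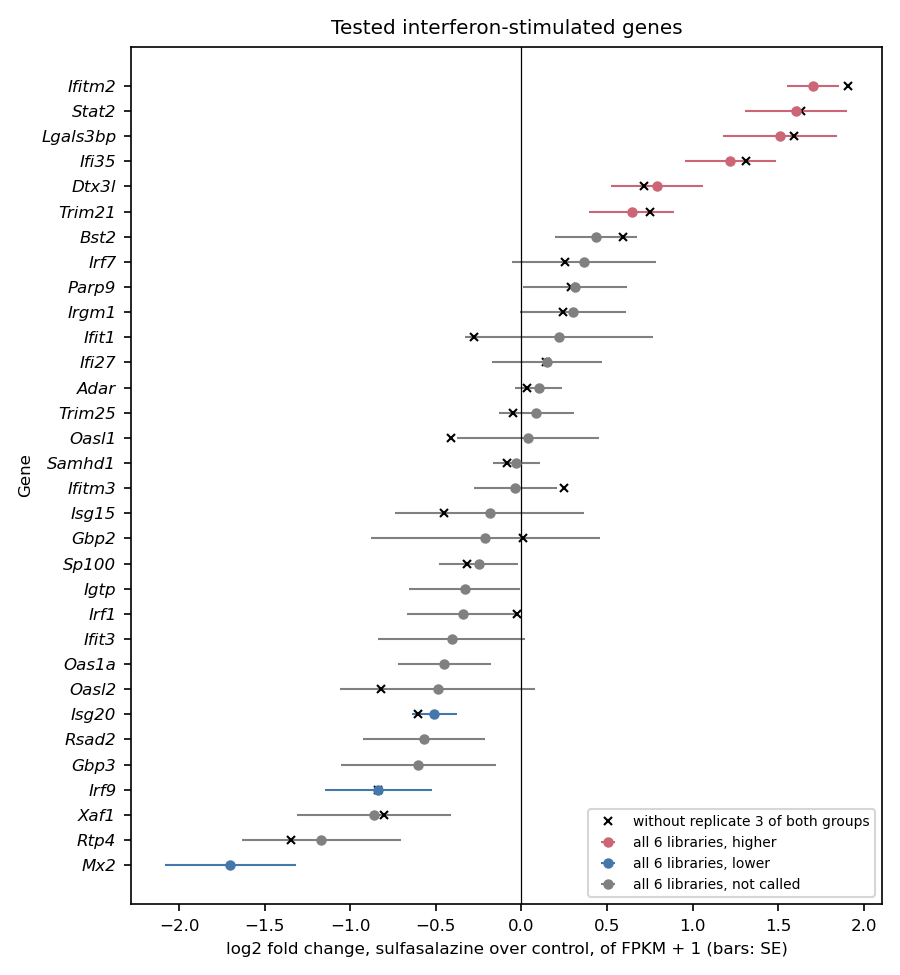
Circles give the log2 fold change, sulfasalazine over control, of FPKM + 1 for the 32 tested interferon-stimulated genes, with bars of 1 SE, in red for the 6 higher, blue for the 3 lower and grey for those that did not pass; crosses give the value with replicate 3 left out of both groups for the 26 genes then tested. The crosses of Oasl1 and Ifit1 lie on the other side of 0 from their circles.

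Among the transcription factors of the pathway, Stat2 rose and Irf9 fell, and both encode parts of the ISGF3 complex. Stat2 (chromosome 10, 128270559 to 128292849) gave 13.0, 10.1 and 21.5 FPKM in controls against 38.9, 36.7 and 64.9 FPKM with sulfasalazine, given here and below in the order of replicates 1, 2 and 3. All 3 treated libraries lay above all 3 controls, and replicate 3 was the highest in each group. The log2 fold change was 1.61 (SE 0.30, with adjusted p = 0.00175 by limma), and 1.63 with replicate 3 left out of both groups. Irf9 (chromosome 14, 55603571 to 55610030), which encodes the DNA-binding part of ISGF3, stood at 24.1, 16.0 and 34.9 FPKM in controls and 10.6, 10.5 and 19.2 FPKM with sulfasalazine. Sulfasalazine replicate 3 lay above control replicate 2, so the groups overlapped. Irf9 fell by 0.84 on the log2 scale (SE 0.31, with adjusted p = 0.0434 by limma). The fall did not pass without a filter on low values (adjusted p = 0.073) or when any 1 of control replicates 1 and 3 and sulfasalazine replicates 1 and 2 was left out, and with replicate 3 left out of both groups it was as large (-0.84, adjusted p = 0.00453).

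The other factors did not pass. Irf1, an early interferon-γ response gene that is also an NF-kB target, stood at 64.3, 31.6 and 91.4 FPKM in controls and 42.9, 45.7 and 46.5 FPKM with sulfasalazine (log2 ratio -0.34 with SE 0.33, adjusted p = 0.380 by limma). All treated libraries lay between control replicates 2 and 1. Irf7, the factor that amplifies type I interferon production, stood at 6.46, 5.79 and 13.5 FPKM in controls and 7.10, 7.91 and 20.7 FPKM with sulfasalazine. In both groups replicate 3 was the highest library, and the difference of 0.37 was smaller than its SE of 0.42.

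The ubiquitin-like modifier gene Isg15 (chromosome 4) had nearly the same mean in both groups and a wide spread. It stood at 11.4, 8.28 and 22.7 FPKM in controls and 7.58, 6.20 and 29.1 FPKM with sulfasalazine, or 14.1 ± 7.56 and 14.3 ± 12.8 FPKM (SD, n = 3). The highest and the lowest of the 6 values both came from treated libraries. The log2 fold change was -0.19 (SE 0.55, with adjusted p = 0.780 by limma), and -0.45 with replicate 3 left out of both groups (adjusted p = 0.0517). With the replicate number as a block as well, it passed as lower (-0.45, adjusted p = 0.0102). That last fit was added after the data were seen, and the labels do not link libraries of the same number.

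The membrane restriction factors behaved unlike each other. Ifitm2 (chromosome 7, 140954837 to 140955987), whose protein blocks virus entry by fusion, rose from 56.4, 70.5 and 75.7 FPKM to 249, 229.9 and 188 FPKM. The log2 fold change of 1.71 (SE 0.15, with adjusted p = 3.94e-05 by limma) was the largest rise of the family, and sulfasalazine replicate 3 was the lowest treated library. Of the exonic bases of Ifitm2, 40.9% lie in the predicted gene Gm45717, and 48.5% of its 50-base words recur in other genes, so its reads cannot be assigned with certainty. Its neighbour Ifitm3 was the most abundant gene of the family by FPKM, at 280.0, 289.6 and 543 FPKM in controls and 357, 319 and 358 FPKM with sulfasalazine. The treated libraries lay inside the range of the controls (log2 ratio -0.04 with SE 0.24, adjusted p = 0.902 by limma). Without control replicate 3 alone, Ifitm3 passed as higher (0.27, adjusted p = 0.0336), and with replicate 3 left out of both groups it did not (0.25, adjusted p = 0.0530).

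Bst2, encoding tetherin, which holds budding virus at the cell surface, stood at 34.4, 35.1 and 63.1 FPKM in controls and 49.8, 56.2 and 68.6 FPKM with sulfasalazine. Control replicate 3 lay above treated replicates 1 and 2, and the difference did not pass (log2 ratio 0.43 with SE 0.24, adjusted p = 0.140 by limma). Without replicate 3 of both groups it was 0.59 and passed (adjusted p = 0.00102). Rsad2, encoding the antiviral enzyme viperin, was at 1.22 to 2.29 FPKM in controls and 0.371, 0.210 and 2.21 FPKM with sulfasalazine (limma adjusted p = 0.189). The nucleotide kinase gene Cmpk2, its neighbour on chromosome 12, was at 0.135 to 1.26 FPKM and was not tested.

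The IFIT genes, whose proteins bind foreign RNA and block its translation, were expressed at low levels and showed no call. Ifit1 stood at 2.35, 1.64 and 3.65 FPKM in controls and 1.33, 1.59 and 9.85 FPKM with sulfasalazine. Sulfasalazine replicate 3 alone lay above the controls, and the log2 fold change of 0.22 (SE 0.55) became -0.28 with replicate 3 left out of both groups, passing neither time. Ifit3 ranged from 0.591 to 3.43 FPKM in controls and from 0.365 to 2.15 FPKM with sulfasalazine (limma adjusted p = 0.423). Of its 50-base words 51.2% recur in other genes, mainly Ifit3b. Ifit2 was at 1.75 FPKM or less in every library and was not tested.

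In the OAS family, enzymes and enzyme-like proteins that respond to double-stranded RNA, Oasl1 was the most abundant. It stood at 37.2, 30.2 and 41.9 FPKM in controls and at 24.7, 25.3 and 81.3 FPKM with sulfasalazine. Treated replicates 1 and 2 were thus the lowest of the 6 libraries and treated replicate 3 the highest. The log2 fold change was 0.04 (SE 0.42, with adjusted p = 0.935 by limma), and -0.41 with replicate 3 left out of both groups, which passed (adjusted p = 0.0172). Oasl2 likewise had its lowest and highest values in treated libraries, at 4.21, 4.13 and 10.0 FPKM in controls and 2.14, 1.73 and 11.4 FPKM with sulfasalazine. Its log2 fold change was -0.49 (SE 0.57, with adjusted p = 0.468 by limma) with all libraries and -0.82 with replicate 3 left out of both groups (adjusted p = 0.00159). Oas1a was at 1.43 to 3.21 FPKM in controls and 0.839 to 2.13 FPKM with sulfasalazine (limma adjusted p = 0.174), with 57.6% of its 50-base words recurring in other genes, mainly Oas1g.

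Among the interferon-induced GTPases, Mx2 fell. Mx2 (chromosome 16, 97535308 to 97560900), of the dynamin-like family that traps viral ribonucleoproteins, is typed as a polymorphic pseudogene in GENCODE M21. Whether these cells make a working protein from it was not tested. Mx2 stood at 3.91, 1.74 and 6.07 FPKM in controls, from 133, 63 and 169 reads. With sulfasalazine it stood at 0.133, 0.115 and 1.19 FPKM, from 5, 4 and 40 reads. All treated libraries lay below all controls, and replicate 3 was again the highest of each group. The log2 fold change was -1.70 (SE 0.38, with adjusted p = 0.00461 by limma), on a scale that understates changes of genes at such levels. Since the controls alone carried Mx2 past the filter, its test is not independent of its level there. Mx1, its neighbour, was at 0.634 FPKM or less in every library.

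The guanylate-binding and immunity-related GTPases, which act against intracellular parasites and bacteria, did not pass. Gbp2 had a wide spread among controls, with 8.72, 1.03 and 13.3 FPKM, against 3.57, 3.37 and 8.13 FPKM with sulfasalazine. Control replicate 2 was the lowest and control replicate 3 the highest of the 6 libraries (log2 ratio -0.21 with SE 0.67). Gbp2 passed as lower when control replicate 2 alone was left out (-1.06, adjusted p = 0.0444). Irgm1 stood at 6.14, 3.67 and 8.09 FPKM in controls and 6.04, 5.63 and 11.1 FPKM with sulfasalazine, with the groups interleaved (log2 ratio 0.30 with SE 0.31). Gbp3 and Igtp ranged from 0.430 to 2.56 FPKM in controls and from 0.160 to 2.16 FPKM with sulfasalazine. Gbp7 had 8 reads or fewer in every library.

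The enzymes that act on nucleic acids included Isg20, which fell, and Samhd1 and Adar, which did not pass. Isg20 (chromosome 7, 78913424 to 78920396), an exonuclease, fell from 27.1, 29.2 and 28.0 FPKM in controls to 18.0, 18.2 and 22.3 FPKM with sulfasalazine. The groups did not overlap, and control replicate 3 did not stand out. The log2 fold change was -0.51 (SE 0.13, with adjusted p = 0.00870 by limma), and it did not pass when sulfasalazine replicate 1 was left out (adjusted p = 0.0511). Samhd1, which degrades the nucleotides that viral DNA synthesis needs, stood at 21.1, 18.0 and 20.9 FPKM in controls and 18.5, 18.2 and 22.0 FPKM with sulfasalazine. Its groups lay over each other (log2 ratio -0.03 with SE 0.14). Adar, which edits adenosine in double-stranded RNA, stood at 42.5, 34.2 and 40.5 FPKM in controls and 40.0, 38.2 and 47.7 FPKM with sulfasalazine (log2 ratio 0.10 with SE 0.14). Chrnb2, on the opposite strand, covers 16.8% of its exonic bases. The RNA sensor gene Ifih1 had 6 reads or fewer in every library, and the sensor gene Zbp1 was at 0.217 to 3.61 FPKM, with control replicate 3 highest, and was not tested.

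In the PARP, DTX and TRIM group, Dtx3l and Trim21, which encode ubiquitin ligases, passed as higher by small margins. Dtx3l (chromosome 16, 35926511 to 35939151) stood at 2.72, 1.30 and 2.96 FPKM in controls and 3.92, 3.69 and 6.62 FPKM with sulfasalazine. The groups did not overlap (log2 ratio 0.79 with SE 0.27, adjusted p = 0.0301 by limma), but Dtx3l did not pass with quantile-normalized values (adjusted p = 0.0744), without the filter (0.0544), or when control replicate 2 or sulfasalazine replicate 3 was left out (0.10 each). Trim21 (chromosome 7, 102557921 to 102565486), a cytosolic antibody receptor, stood at 3.81, 1.77 and 4.24 FPKM in controls and 5.45, 4.85 and 6.05 FPKM with sulfasalazine. Its groups did not overlap either (log2 ratio 0.64 with SE 0.25, adjusted p = 0.0486 by limma), and the call was lost under both other scalings, at a pseudocount of 0.1, without the filter, and without any 1 library other than control replicate 3. In the authors' deposited table Trim21 has an adjusted p of 0.101.

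Parp9, the partner of Dtx3l, shares 9.40% of its exonic bases with it on the opposite strand. Parp9 stood at 4.82, 2.89 and 6.62 FPKM in controls and 5.35, 4.32 and 8.77 FPKM with sulfasalazine. The groups overlapped and the difference did not pass (log2 ratio 0.31 with SE 0.30). Trim25, the ubiquitin ligase that activates the RNA sensor RIG-I, stood at 12.8, 8.16 and 11.3 FPKM in controls and 10.1, 9.69 and 14.8 FPKM with sulfasalazine (log2 ratio 0.09 with SE 0.22). Parp14 was at 1.60 FPKM or less and was not tested.

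The remaining 6 genes of the family included Lgals3bp and Ifi35, which rose. Lgals3bp (chromosome 11, 118392751 to 118402092), encoding a secreted galectin-binding glycoprotein, rose from 32.7, 29.5 and 66.7 FPKM to 95.1, 95.9 and 172 FPKM. The lowest treated library lay above the highest control, and replicate 3 was highest in each group (log2 ratio 1.51 with SE 0.34, adjusted p = 0.00435 by limma). Ifi35 (chromosome 11, 101448407 to 101458698), a leucine-zipper protein that pairs with NMI, rose from 9.55, 7.00 and 14.9 FPKM to 22.0, 21.5 and 31.7 FPKM. Its groups did not overlap either (log2 ratio 1.22 with SE 0.27, adjusted p = 0.00393 by limma), and 16.8% of its exonic bases lie in an antisense gene. Without replicate 3 of both groups the log2 fold changes of Stat2, Lgals3bp and Ifi35 were 1.63, 1.59 and 1.31, close to the values over all libraries.

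Rtp4 and Xaf1 had lower values with sulfasalazine that did not pass. Rtp4, encoding a receptor transporter with antiviral activity, stood at 5.89, 3.19 and 9.35 FPKM in controls and 1.37, 0.882 and 4.90 FPKM with sulfasalazine. Treated replicate 3 lay above control replicate 2 (log2 ratio -1.17 with SE 0.46, adjusted p = 0.0531 by limma), and 13.9% of the exonic bases of Rtp4 lie in Gm45338. Over all libraries the controls alone carried Rtp4 past the filter, so that test is not independent of its level there. Without replicate 3 of both groups Rtp4 passed as lower (-1.35, adjusted p = 0.00204). Xaf1, encoding a partner of the apoptosis inhibitor XIAP, stood at 7.59, 3.53 and 13.7 FPKM in controls and 2.78, 2.37 and 6.45 FPKM with sulfasalazine, with the same overlap (log2 ratio -0.86 with SE 0.45, adjusted p = 0.122 by limma). It too passed with replicate 3 left out of both groups (-0.81, adjusted p = 0.0340). In the authors' deposited table both are lower, Rtp4 with an adjusted p of 0.0171 and Xaf1 of 0.0214.

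Ifi27, encoding a mitochondrial membrane protein, stood at 46.5, 33.4 and 72.1 FPKM in controls and 40.0, 47.6 and 80.7 FPKM with sulfasalazine. Replicate 3 was highest in both groups and the groups overlapped (log2 ratio 0.15 with SE 0.32). The nuclear body gene Sp100 was at 1.33 to 2.19 FPKM in controls and 0.710 to 1.96 FPKM with sulfasalazine.

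**Figure D4:**
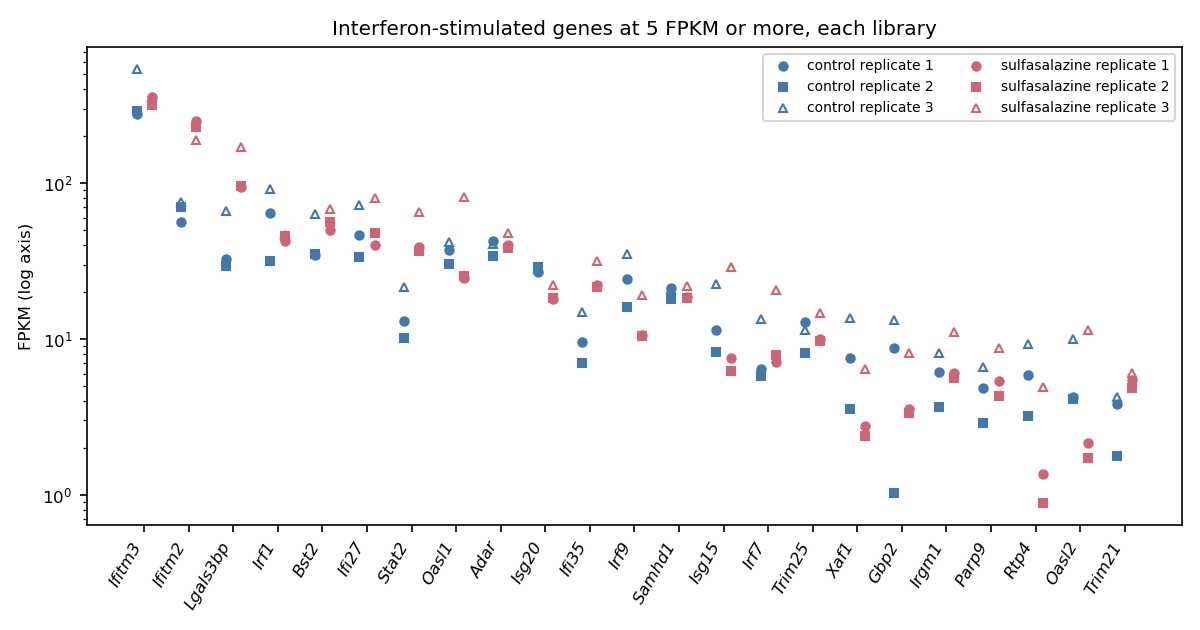
FPKM in each library, on a log axis, for the 23 interferon-stimulated genes whose higher group mean was at least 5 FPKM, ordered by that mean; blue marks controls, red marks sulfasalazine, and open triangles mark replicate 3. In Stat2, Ifitm2, Lgals3bp and Ifi35 all red marks lie above all blue ones, while in Oasl1 and Oasl2 the highest and the lowest marks are both red.

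By level, 23 of the 39 genes had a mean of at least 5 FPKM in the higher group, 16 had at least 10 and 3 (Ifitm3, Ifitm2 and Lgals3bp) at least 100, while 6 stayed below 1 FPKM in both means. FPKM divides by the gene lengths the authors used, so the order of genes depends on those lengths. The genes with an ISRE match in their promoter window, such as those printed above, did not move as a block. Of 14 tested genes with a match, Stat2, Ifitm2 and Trim21 passed as higher and 0 as lower, with a median log2 fold change of -0.11. Of 14 tested genes with a window and no match, 3 passed as higher and 2 as lower, with a median of 0.01. Over all tested genes the shares were 37.2% and 29.3%, and the difference between the sets was not tested.

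Genes upstream of the family moved in both directions. Of 47 pathway components looked up, 37 had values and 30 were tested, of which 10 passed as higher and 13 as lower (median log2 fold change -0.01), against 37.2% and 29.3% of all tested genes. Interferon ligands were near or at 0: Ifnb1, encoding interferon-β, was listed at 0.0666, 0 and 0.0814 FPKM in controls and at 0 in all 3 treated libraries. Of 5 tested receptor genes, Ifnar1, Ifnar2 and Ifngr1 rose. Their share is to be read against the 37.2% of all tested genes that passed as higher and the 66.5% that passed in either direction. Ifnar1 stood at 51.4, 50.9 and 53.4 FPKM in controls and 75.8, 73.4 and 72.7 FPKM with sulfasalazine, without overlap and without replicate 3 standing out (log2 ratio 0.50 with SE 0.09, adjusted p = 0.00173 by limma). Ifnar2 rose by 0.51 and Ifngr1 by 0.32 on the same scale, while Ifngr2 did not pass (limma adjusted p = 0.993). Ifnar2 did not pass when scaled by median of ratios (adjusted p = 0.0523) or when any 1 of control replicate 2 and sulfasalazine replicates 1 and 2 was left out (0.0549 to 0.0611). Ifngr1 no longer passed when scaled by median of ratios (adjusted p = 0.177), by limma voom (0.0557), with replicate 3 left out of both groups (0.0744), or without any single library except control replicate 1 (0.0515 to 0.174).

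The receptor-bound kinase gene Tyk2 showed the largest rise of these components, from 5.71, 5.12 and 6.92 FPKM to 27.9, 26.1 and 24.4 FPKM (log2 ratio 1.98 with SE 0.15, adjusted p = 2.14e-05 by limma). Jak1 rose by 0.48 and Jak2 fell by 0.65. Jak1 did not pass without sulfasalazine replicate 3 (adjusted p = 0.0643), and its rise was 0.27 with replicate 3 left out of both groups (adjusted p = 0.0226).

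Of the sensing arm, the adaptor genes Sting1, Ticam1 and Mavs and the factor gene Irf3 rose, by 1.82, 1.00, 0.92 and 0.86 on the log2 scale. Of 4 tested sensor genes, Cgas and Ddx58, which encodes RIG-I, fell, with log2 fold changes of -0.89 and -0.76. The groups of Ddx58 overlapped. Dhx58 and Tlr4 did not pass. The kinase gene Ikbke and the adaptor gene Tank, both of which act just above IRF3, changed by -1.68 and -1.73, and Tbk1, Traf3 and Myd88 fell as well. Of 7 tested brakes of the pathway, 4 fell. The sensor and brake counts are to be read against the 29.3% of all tested genes that passed as lower and the 66.5% that passed in either direction. Usp18, which removes ISG15 from proteins and blocks the type I receptor, fell from 11.3, 8.11 and 24.0 FPKM to 2.30, 2.71 and 6.65 FPKM (log2 ratio -1.64 with SE 0.43, adjusted p = 0.00951 by limma). The phosphatase gene Ptpn2, which dampens JAK and STAT signalling, had a log2 fold change of -1.80 (SE 0.20). Usp18 is itself an interferon-stimulated gene, and replicate 3 was highest in both groups.

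**Figure D5:**
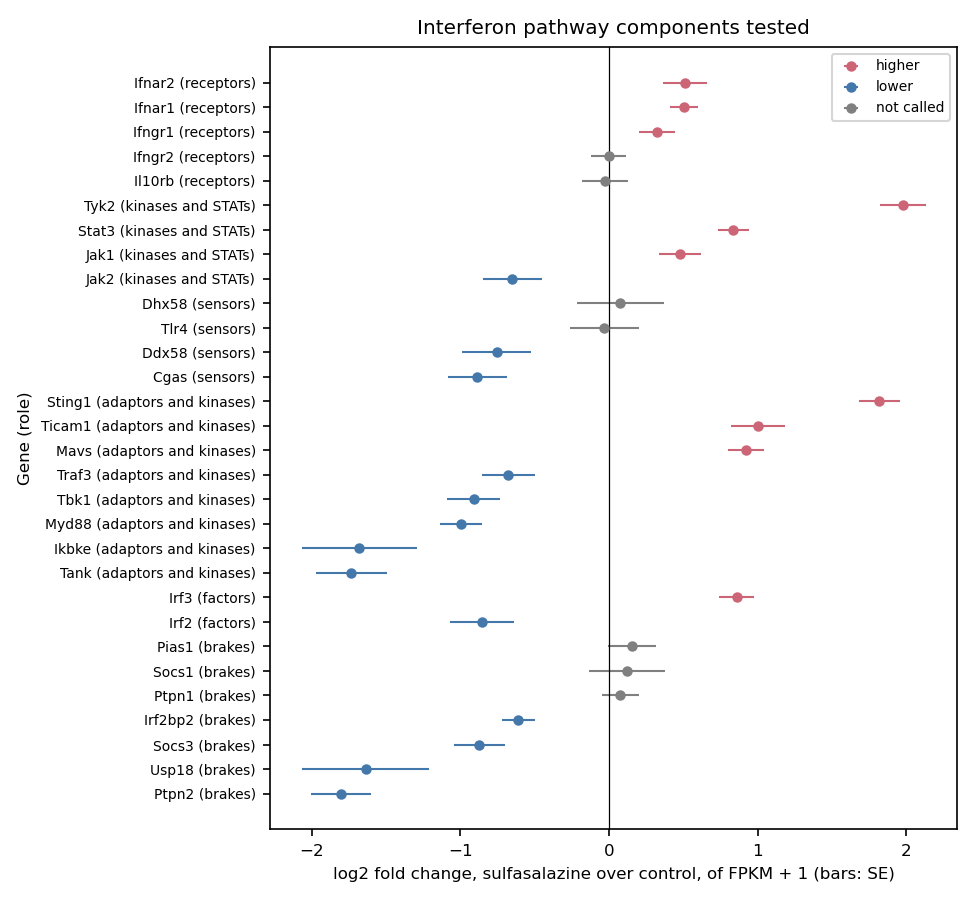
Log2 fold change, sulfasalazine over control, of FPKM + 1 with bars of 1 SE for the 30 tested pathway components, grouped by role; red marks the 10 higher, blue the 13 lower and grey those that did not pass. Receptors show only red and grey points and the brakes only blue and grey ones.

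Of 62 further interferon-stimulated genes looked up, 56 had values and 38 were tested, of which 13 passed as higher and 15 as lower (median log2 fold change -0.28), against 37.2% and 29.3% of all tested genes. The controls alone carried Cxcl10, Ifi204, Oas1b, Oas1g and Oas2 past the filter and the treated libraries alone Uba7, and of the other 32 genes 12 were higher and 10 lower. Replicate 3 was highest in both groups for 21 of the 38, with median distances of 0.32 and 0.27. On the log2(FPKM + 1) scale the largest rises were those of Trim14 (2.2), an adaptor of antiviral signalling, Ifitm1 (1.94), a relative of Ifitm2, and Tapbp (1.88), which loads peptides on MHC class I. On that scale the largest falls were those of the chemokine gene Cxcl10 (-1.95), the MHC class I regulator gene Nlrc5 (-1.93) and Oas1b (-1.86). The order depends on the scale, since by limma voom Uba7 (2.77) stood above Trim14 (2.58), and Ifi204 (-5.93), Oas1g (-3.64) and Oas1b (-3.61) stood below Cxcl10 (-2.61). Because 1 group alone carried Uba7, Ifi204, Oas1g, Oas1b and Cxcl10 past the filter, their calls and ranks are not independent of their levels there. Cxcl10 stood at 13.6, 10.0 and 17.1 FPKM in controls and at 0.900, 0.819 and 13.5 FPKM with sulfasalazine, so treated replicate 3 lay within the controls (SE 0.73, with adjusted p = 0.0420 by limma). Cxcl10 did not pass without the filter (adjusted p = 0.0769) or when any 1 library other than sulfasalazine replicate 3 was left out (0.0764 to 0.129), and its log2 ratio was -2.94 without that library. Ifitm1 stood at 16.6, 30.4 and 10.4 FPKM in controls and 133, 114 and 21.8 FPKM with sulfasalazine, and here replicate 3 was the lowest library of each group. Ifitm1 (adjusted p = 0.0298 by limma) did not pass without the filter (0.0576), by limma voom (0.0528), or when any 1 of control replicates 1 and 3 and sulfasalazine replicates 1 and 2 was left out (0.0740 to 0.0951).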

How the data were processed

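The authors deposited 1 FPKM value per gene and library, together with a library-size-adjusted signal. Per the file headers the table also gives a log2 fold change computed by the authors, and a p-value. HISAT2 2.2.1, HTSeq 0.13.5, fastp 0.23.0, mm39 and edgeR are named, without roles, per the submitters' processing notes. Gene starts and ends matched GENCODE release M21 (GRCm38) for 13849 of 13982 matched genes and 38 of the 39 members (all but Isg15), so coordinates are given as GRCm38. After scaling by 1 factor per library, 100.0% of FPKM values above 0 were whole reads within 0.00001 reads. The closest pair of libraries differed beyond sampling noise, and all 6 were kept.

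Groups and replicate numbers came from the sample titles. Genes reaching 1 FPKM in 3 or more libraries were tested on log2(FPKM + 1), so fold changes of low genes are understated, with limma 3.58.1 in R 4.3.3 (lmFit, eBayes with trend, two-sided). Adjustment was Benjamini-Hochberg over 10338 genes, with a threshold of 0.05. A count model other than limma voom was not run, since no deposited column holds counts. The fit was tested on 5 simulations of sulfasalazine against control with 200 changed genes among 10279 to 10289 run. Every gene had the same simulated spread (dispersion 0.02), and no shift of replicate 3 was simulated. Of the changed genes, 97.8% of those set 1 log2 unit apart and 100.0% of those set 2 apart were recovered. Of unchanged genes, 0.0793% were called. These shares do not hold for members with a wider spread, such as Isg15 (SE 0.55). The members and lists were chosen with earlier results of these data known. Members are described by role, with values in every library for those at 5 FPKM or more in the higher group mean and for those called; others are given by range. Of the components and further genes, the 3 largest rises and falls called and 9 fixed genes are named; 1 further component is not reported here. Other names among them were chosen after their values were seen. Alternatives covered the pseudocount, filter, scaling, trend, replicate number, threshold, recovered reads and libraries left out; 1, the block without replicate 3, was added after the data were seen. No source used here says whether counting used strand.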

Additional observations from a re-analysis of the deposited data

How the results depend on the processing

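Under the 18 alternatives, Stat2, Ifitm2, Ifi35 and Lgals3bp remained higher in every one. The members called higher numbered 4 to 8. With 1 library left out at a time they also ran from 4 to 8, while the count of all genes called higher ran from 3042 to 4205. Isg20 kept its call except without sulfasalazine replicate 1 and at a minimum absolute log2 fold change of 1. Mx2 kept its call wherever it was tested, but the controls alone carried it past the filter of the main analysis. It was not tested at a filter of 5 FPKM or without replicate 3 of both groups. Trim21, Dtx3l and Irf9 lost theirs as given above. Over the log2 fold changes of the named genes under all alternatives, 743 kept their direction and side of the threshold, 65 lost the threshold, 31 gained it and 41 changed direction, all of the last belonging to genes not called with all libraries.

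Members called lower, 3 in the main analysis, numbered 9 under quantile normalization, 1 at a minimum absolute log2 fold change of 1 and 6 without replicate 3 of both groups. The 9 included Oas1a, Mx2, Rsad2, Rtp4 and Sp100, which the controls alone carried past the filter. Leaving out 1 library at a time gave 1 (without sulfasalazine replicate 1) to 8 (without sulfasalazine replicate 3), and 7 without control replicate 2. Over the same fits the count of all genes called lower ran from 2437 to 3417. Whether the members moved apart from all genes was not tested. At that minimum fold, 1990 of all genes were higher and 1440 lower, 2 and 4 of the pathway components, and 8 and 9 of the further interferon-stimulated genes. At a threshold of 0.01, for which no share over all genes is given here, the further genes numbered 8 higher and 8 lower. Leaving out 1 library gave 8 to 13 of them as higher. The cause of these changes was not tested, beyond the smaller number of genes that a stricter rule admits.

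With the replicate number as a block, 7 members were higher and 7 lower (62.1% of all genes called, 35.3% as higher and 26.8% as lower). The block added Bst2 as higher and Oas1a, Rsad2, Rtp4 and Xaf1 as lower. Of these, Oas1a, Rsad2 and Rtp4 passed the filter through the controls alone. With the block and without replicate 3 of both groups, 7 were higher and 7 lower, Isg15 among the lower. No share over all genes is given here for that fit. Same-numbered libraries had correlations of deviations of 0.04, -0.19 and -0.17 over all tested genes, and no library correlated best with its own number. Over the members these were 0.13, 0.27 and 0.40, all above 0.1. The numbers were not taken as pairs, since the labels do not link them and the values over all genes do not, but a link within this family was not tested. In the blocked fit, limma's F test of the replicate number called 0 of 10338 genes at an adjusted p under 0.05 and 304 (2.94%) at an unadjusted p under 0.05, of which 23 were members.

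The following log2 fold changes changed direction. Leaving out 1 library gave -0.83 to 0.20 for Isg15, -0.49 to 0.62 for Ifit1, -0.085 to 0.71 for Irf7, -0.51 to 0.33 for Oasl1, -0.14 to 0.43 for Ifi27 and -0.20 to 0.27 for Ifitm3. It gave -1.06 to 0.35 for Gbp2, -0.092 to 0.21 for Trim25, -0.11 to 0.015 for Samhd1 and -0.083 to 0.056 for Ifngr2. Without replicate 3 of both groups, with or without the block, Ifit1 was at -0.28, Oasl1 at -0.41, Ifitm3 at 0.25, Gbp2 at 0.0084 and Trim25 at -0.047. Quantile normalization gave -0.10 for Ifit1, 0.12 for Ifitm3, -0.093 for Trim25 and 0.016 for Ifngr2. Median-of-ratios scaling gave -0.083 for Oasl1, -0.031 for Trim25 and -0.024 for Adar, and limma voom 0.0024 for Ifngr2. With 3 libraries a group and the spread of replicate 3, small differences in most members were not detectable at this precision.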

Other observations

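Some genes that act on ISG15 or on other ubiquitin-like modifiers were chosen after their values were seen. Uba7, encoding the enzyme that activates ISG15, stood at 0.190, 0.204 and 0.331 FPKM in controls, from 7, 8 and 10 reads, and 1.45, 1.20 and 2.67 FPKM with sulfasalazine. No control reached 1 FPKM, so Uba7 passed the filter through the treated libraries alone and its test is not given. Nub1, whose protein targets some ubiquitin-like modifiers for degradation, rose by 0.62 (SE 0.13, limma adjusted p = 0.00311). The ligase gene Herc6 was at 0.612 FPKM or less and was not tested.

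The OAS family outside the 39 genes held further low values with sulfasalazine. Oas1b stood at 4.29, 2.03 and 8.67 FPKM in controls and 0.128, 0.174 and 1.44 FPKM with sulfasalazine, and Oas2 at 2.48, 1.80 and 4.23 against 0.459, 0.533 and 1.49 FPKM. Oas1g, the main gene sharing words with Oas1a, stood at 1.24, 1.06 and 4.02 FPKM in controls and 0.0640, 0.0694 and 0.359 FPKM with sulfasalazine. Replicate 3 was highest in each group for all 3 genes, and the controls alone carried them past the filter, so their tests are not given. Oas3 did not pass (limma adjusted p = 0.229). The chemokine gene Ccl5 stood at 40.1, 30.5 and 36.3 FPKM in controls and 12.6, 12.0 and 58.3 FPKM with sulfasalazine. Its log2 fold change was -0.74 (SE 0.53, limma adjusted p = 0.244) with all libraries, and -1.44 with replicate 3 left out of both groups (adjusted p = 7.98e-05).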
